A study of Mus musculus with 22 samples.

Results

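The solute carriers of the mouse kidney other than the Slc22a organic ion carriers were taken from a table of ac4C peaks as every peak whose gene name starts with Slc, a family number, the letter a and a member number, with the Slc22a names left out. This rule gave 123 of the 9857 peaks of the table, in 71 of its 4909 gene names and in 28 families. Kidneys of 6 db/db and 5 db/m mice were used. Mice of the db/db genotype have a defective leptin receptor on both alleles and develop obesity and diabetes, and db/m mice carry 1 defective allele and stay lean. In acRIP-seq, fragmented RNA is pulled down with an antibody against N4-acetylcytidine (ac4C), a modified base of RNA that the enzyme NAT10 writes, and then sequenced (IP). Each animal also had a library of RNA that was not pulled down, called RNA-seq here and input in the table, which gives the abundance of the transcript over the same bases. The study asked which transcripts differ in ac4C between db/db and db/m kidneys. The labels give genotype and tissue, the study's methods describe male mice obtained as young adults, and no other treatment or age at sampling is given for these animals. Nothing says more on how the numbered samples were taken, so p-values measure only the spread between these samples.

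Solute carriers are membrane proteins that move sugars, amino acids, ions, organic acids and vitamins across the membranes of cells and organelles. In the kidney, the proximal tubule uses them to take glucose, amino acids, phosphate, bicarbonate and dicarboxylates back from the filtrate, and the thick ascending limb and distal segments use others to recover salt. Many work with partners, such as PDZ scaffolds that hold carriers in the brush border.

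Reads counted in peaks ranged from 7577171 to 10293757 in the IP libraries and from 3151035 to 3352535 in the RNA-seq libraries. Values are in CPM, counts of a peak scaled to a common total of reads in peaks, after scaling of the libraries by the TMM method. The carriers took 1.10 to 1.35% of the IP reads in db/db and 1.36 to 1.48% in db/m, and 1.48 to 1.84% and 1.86 to 2.09% of the RNA-seq reads. Reads in overlapping peaks enter these shares more than once. The 2 peaks of Slc27a2 overlap and had 414401 and 401029 reads over the 22 libraries, so this gene weighs heavily in the shares. Slc27a2 was itself lower in db/db RNA-seq (below), and the shares without it were not computed. Markers of the thick ascending limb had a peak in 1 of 3 listed genes (Egf), with RNA-seq levels of 394 to 1137 CPM in db/db and 1451 to 2296 CPM in db/m. Markers of the proximal tubule (2 of 5 genes) had 5248 to 6692 CPM in db/db and 3678 to 4269 CPM in db/m. Of their 4 peaks, 2 were higher and 2, those of Lrp2, lower at an adjusted p under 0.05. Markers of principal cells (2 of 4 genes) had 211 to 361 CPM in db/db and 140 to 250 CPM in db/m. Markers of lung (3 of 4 genes) had 378, 300, 266 and 95 reads in the IP libraries of db/db animals 1 to 4, 2 reads in animals 5 and 6, 0 to 4 reads in db/m IP libraries and at most 3 reads in any RNA-seq library. Their part in the IP results below was not tested, and each called change of a carrier in IP reads is given beside its change in RNA-seq reads. Animal 6 of the db/db group lay nearest to the db/m group at many carriers, and values without it are given for some of them.

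Slc25 was the largest family, with 9 genes, followed by Slc6 with 7 and by Slc7, Slc9, Slc12 and Slc16 with 4 each. Grouped by what they carry, 35 peaks in 20 genes belonged to amino acid and peptide carriers, 15 peaks in 9 genes to mitochondrial carriers, 13 peaks in 7 genes to carriers of sodium, potassium, calcium and chloride, 11 peaks in 7 genes to sugar carriers and 11 peaks in 6 genes to metal carriers. Slc9a3r1, with 4 peaks, is a scaffold and not a carrier, and was kept because its name fits the rule. The peaks had a median length of 211 bases as listed, and 22 of 123 were longer than 1000 bases. The peak names split them into 54 from the db/db list of peaks and 69 from the db/m list. Both lists held a peak of 32 genes. Overlapping peaks share reads, and the 123 peaks formed 92 groups of overlapping peaks. A total of 117 peaks lay inside the RefSeq gene they are named for, 5 lay partly inside it and 1 outside. All 123 peaks were tested, although 21 (17.1%, against 18.7% of all peaks) had under 50 reads over the 22 libraries and none of those 21 was called.

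Short stretches of promoter sequence are shown for 2 of the genes whose RNA-seq reads differed between the genotypes and whose RefSeq promoter (250 bases before to 50 after the gene start, GRCm38.p6) holds a motif of factors known from metabolic genes. RefSeq promoters were found for 52 of the 71 genes, the first listed promoter of a gene was searched, and the motifs were chosen after the values were seen. Each window reads 5′ to 3′ on the strand of the gene, with the motif, read on either strand, in capitals.
Slc25a34 (chr4:141623936-141623965, minus strand): tccagtcacaagTGACCTttcctccagatc
Slc5a1 (chr5:33104064-33104093, plus strand): ccttttctgcctCACGTGggactccgtggc
The letters AGGTCA, a half-site of nuclear receptors, on either strand, stood in 6 of the 52 carrier promoters and in 16% of the 27025 promoters taken the same way from all genes, and CACGTG, the E-box, in 4 of 52 and in 7.24% of all. The match in Slc25a34 lies 119 bases before the gene start and that in Slc5a1 143 bases before it. Both genes shown were higher in db/db. A half-site of the factor HNF1 was also searched and stood in 4 of 52 carrier promoters and in 7.2% of all. Promoters of Slc34a1 (HNF1 half-site), Slc27a2 (nuclear receptor half-site) and Slc13a3 (E-box) also held a motif and are not shown. These genes were lower in db/db RNA-seq at 1 peak or more.

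In RNA-seq reads, 11 of the 123 carrier peaks (8.94%) were called, against 3.95% of all 9857 peaks. A call needs an adjusted p under 0.05 over all peaks and a log2 fold change over 1 in size. The 8 peaks that fell (1.97% of all peaks fell by this rule) belonged to Slc7a13, Slc34a1, Slc18a1, Slc16a14 and Slc9a8, and the 3 that rose (1.98% of all peaks) belonged to Slc25a34 and Slc16a3. With no limit on the fold, 27 peaks (22%, against 11.3% of all peaks) in 15 genes passed, 17 lower and 10 higher in db/db, beside 5.93% and 5.34% of all peaks. Values of the genotypes did not overlap in 19 of the carrier peaks (15.4%) and in 7.89% of all peaks. The median log2 fold change over the 123 peaks was -0.15, and over all peaks it was -0.01.

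In IP reads, 8 carrier peaks (6.5%, against 3.32% of all peaks) in 5 genes were called. The 4 lower peaks (1.72% of all peaks were lower by this rule) belonged to Slc7a13, Slc18a1 and Slc9a8, and the 4 higher peaks (1.59% of all peaks) to Slc6a6 and Slc25a34. Without a limit on the fold, 14 carrier peaks passed (11.4%, against 6.45% of all peaks), and the genotypes did not overlap in 12 (9.76%, against 5.77%). The median log2 fold change in IP reads was -0.00 over the carriers and 0.00 over all peaks. Relative to RNA-seq reads, the IP reads of 0 carrier peaks were called in edgeR's quasi-likelihood test, in DESeq2 or in limma, against 0.0203% of all peaks in edgeR. At an unadjusted p under 0.05, 16 carrier peaks stood out in edgeR (13.0%, against 6.76% of all peaks).

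**Figure D1:**
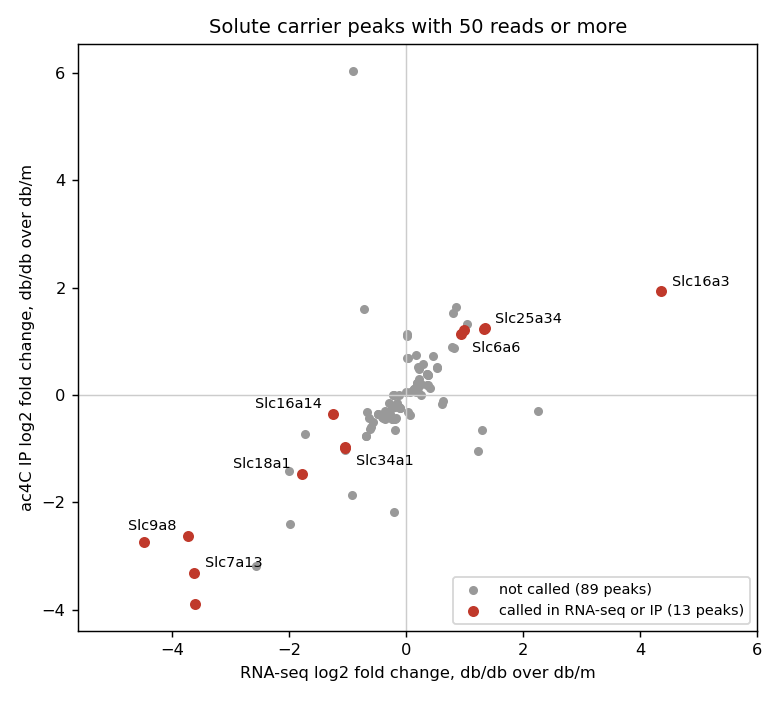
Log2 fold change (db/db over db/m) of the 102 carrier peaks with 50 reads or more in all, in RNA-seq reads on the x axis and in ac4C IP reads on the y axis. Each point is a peak, and the 13 in red were called in at least 1 of the comparisons and are named by gene. Called peaks lie on the same side of 0 in both kinds of library, from Slc9a8 and Slc7a13 at the lower left to Slc25a34 and Slc16a3 at the upper right.

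The largest called fall apart from Slc9a8 was that of Slc7a13, the aspartate, glutamate and cystine carrier of the straight part of the proximal tubule, which pairs with the heavy subunit encoded by Slc3a1. At its lead peak near the end of the gene (chr4:19841951-19842159), RNA-seq levels in db/m mice were 341, 189, 336, 289 and 289 CPM, and db/db mice ranged from 2.21 through a median of 7.83 to 106 CPM. All db/db values lay below all db/m values, and the highest db/db value was that of animal 6. Means were 23.7 ± 40.5 (SD, n = 6) and 289 ± 61.2 CPM (SD, n = 5), a log2 fold change of -3.61 ± 0.63 (SE) with an adjusted p of 0.000615 in edgeR's quasi-likelihood test. IP levels at this peak fell from 415 ± 76.9 (SD, n = 5) to 27.8 ± 41.5 CPM (SD, n = 6), by 3.89 ± 0.63 (SE) on the log2 scale, with an adjusted p of 0.000654. A peak close to the gene start (chr4:19819260-19819379) gave log2 fold changes of -3.62 (RNA-seq) and -3.31 (IP). Without db/db animal 6, the log2 fold change at the lead peak was -5.32 in RNA-seq and -5.20 in IP reads. DESeq2 gave no adjusted p for either Slc7a13 peak in either kind of library.

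Slc6a6, the sodium-coupled taurine carrier, moved the other way. At chr6:91756339-91756489 its IP level was 24.5, 30.4, 23.7, 20.8 and 30.4 CPM in db/m mice and ran from 31.7 through a median of 61.0 to 68.7 CPM in db/db mice. The groups did not overlap, and the lowest db/db value was again that of animal 6. The log2 fold change was 1.13 ± 0.21 (SE, adjusted p = 0.00244) in IP reads and 0.94 ± 0.17 (SE, adjusted p = 0.000954) in RNA-seq reads, which lies under the fold limit of a call. That limit was passed in RNA-seq reads without db/db animal 5 or 6, without db/m animal 2 and without TMM scaling. A shorter peak in the same stretch gave 1.21 in IP and 0.99 in RNA-seq reads.

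Slc3a1, the heavy subunit that brings cystine carriers to the brush border, was at 102 ± 10.8 CPM in db/m (SD, n = 5) and 77.0 ± 11.2 CPM in db/db RNA-seq (SD, n = 6), a log2 fold change of -0.41 ± 0.13 (SE) with an adjusted p of 0.0489. Its IP level differed by -0.41 with an adjusted p of 0.235. Over the whole role, 3 peaks were lower, 2 higher and 30 of 35 did not pass the test in RNA-seq reads, with no limit on the fold. Slc6a18 and Slc6a19, which take up glycine and neutral amino acids at the brush border, changed by 0.25 and -0.21 in RNA-seq reads, with adjusted p of 0.212 and 0.528. Slc3a2, the heavy subunit of the basolateral exchangers, gave 0.38 (adjusted p = 0.122), and its light chain partner Slc7a8 gave -0.19 (adjusted p = 0.633). Without db/db animal 6, Slc3a2 gave 0.29 (adjusted p = 0.202) and Slc7a8 -0.46 (adjusted p = 0.0925) in RNA-seq reads. The IP value of Slc7a8 went from -0.65 (adjusted p = 0.133) to -0.80 (adjusted p = 0.0413). Leaving out other single animals gave Slc7a8 an adjusted p of up to 0.224 in IP reads.

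Slc34a1 encodes the main sodium-phosphate carrier of the proximal tubule. At chr13:55402685-55402989, RNA-seq levels were 228, 211, 198, 164 and 181 CPM in db/m mice, and 54.3, a median of 73.0 and 191 CPM in db/db mice. The highest db/db value, that of animal 6, overlapped the db/m values. The log2 fold change was -1.05 ± 0.27 (SE, adjusted p = 0.0141) in RNA-seq reads and -0.97 ± 0.25 (SE, adjusted p = 0.0266) in IP reads. Since the fold lies near its limit, the RNA-seq call was lost without db/db animal 2, 3 or 5, without db/m animal 1, or without TMM scaling, and the lowest size was -0.92. Leaving out animal 6 gave -1.37 (RNA-seq) and -1.21 (IP), past the limit in both. A second peak within this stretch shares its reads. The remaining phosphate and sulfate carriers did not pass, among them Slc13a1, the sulfate carrier of the brush border, at 0.22 (adjusted p = 0.542), or 0.37 without animal 6 (adjusted p = 0.147).

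All 4 peaks of Slc9a3r1, the scaffold that binds the phosphate carrier and the sodium-proton exchanger of the brush border, were lower in db/db RNA-seq. They cover only 2 stretches: 2 share their coordinates and reads, and the other 2 overlap. In IP reads the 2 at the gene start passed at an adjusted p under 0.05 and the 2 further along the gene did not. At its peak near the gene start (chr11:115163489-115163903), db/m mice lay at 383, 388, 366, 379 and 393 CPM, and db/db mice at 176, a median of 212 and 348 CPM. The groups did not overlap, and db/db differed by a log2 fold change of -0.68 ± 0.15 (SE, adjusted p = 0.0040) in RNA-seq and -0.75 ± 0.19 (SE, adjusted p = 0.0177) in IP reads.

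Slc18a1, a vesicular monoamine carrier, was read over a peak of 1555 bases (chr8:69065598-69067152). Its RNA-seq levels were 18.9, 26.2, 17.7, 15.95 and 22.5 CPM in db/m, and 1.88, a median of 4.45 and 14.9 CPM in db/db, without overlap. In log2 fold change the fall was -1.78 ± 0.36 (SE, adjusted p = 0.00264) in RNA-seq and -1.46 ± 0.35 (SE, adjusted p = 0.0164) in IP reads. Without db/db animal 6 the RNA-seq value was -2.31.

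**Figure D2:**
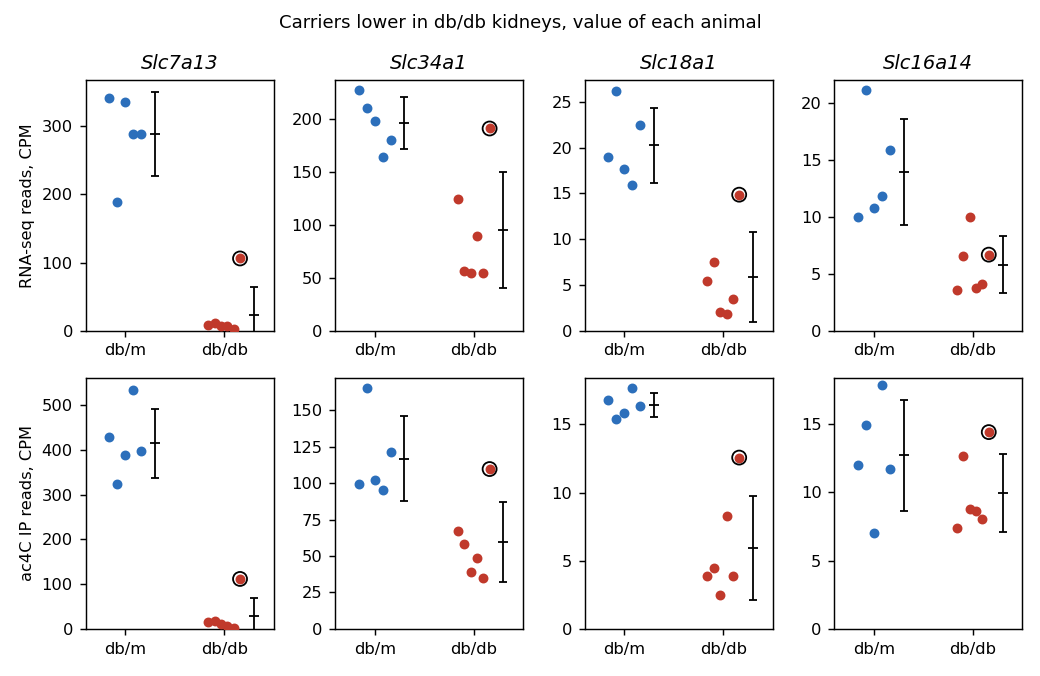
RNA-seq (upper row) and ac4C IP (lower row) levels in CPM at the lead peaks of Slc7a13, Slc34a1, Slc18a1 and Slc16a14, 1 point per animal, with the mean and SD of 5 db/m and 6 db/db animals beside the points (bars are cut off at 0). The db/db animal 6 is ringed and is the highest db/db value of Slc7a13, Slc34a1 and Slc18a1 in both rows.

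Among carriers of mono- and dicarboxylates, the members went different ways: 3 peaks were lower, 2 higher and 2 of 7 did not pass in RNA-seq reads. Slc16a14, an orphan of the monocarboxylate family, was at 9.95, 21.1, 10.8, 11.8 and 15.8 CPM in db/m RNA-seq and at 3.61, a median of 5.35 and 9.99 CPM in db/db. The highest db/db value was just above the lowest db/m value. The log2 fold change was -1.25 ± 0.28 (SE, adjusted p = 0.00497). IP reads gave -0.35 (adjusted p = 0.551), and IP relative to RNA-seq reads 0.95 ± 0.33 (SE), with an unadjusted p of 0.00409 and an adjusted p of 0.506.

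Slc13a3 is the basolateral sodium-dicarboxylate carrier. Its long peaks were lower in RNA-seq, by log2 fold changes of -0.63 (adjusted p = 0.0202) and -0.56 (adjusted p = 0.0432), and its lead peak at the end of the gene gave -0.39 with an adjusted p of 0.252. Without db/db animal 6, the lead peak gave -0.62 with an adjusted p of 0.00955 in edgeR's test. Leaving out other single animals gave an adjusted p of up to 0.408 there. Slc16a11, another member of the monocarboxylate family, was at 21.6 ± 1.002 CPM in db/m (SD, n = 5) and 32.8 ± 9.92 CPM in db/db RNA-seq (SD, n = 6), without overlap, a log2 fold change of 0.60 ± 0.18 (SE, adjusted p = 0.0409). In IP reads the gene gave -0.17 (adjusted p = 0.774).

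Slc16a3, which exports lactate, rested on very few reads. RNA-seq reads at chr11:120957963-120958023 were 0 in all 5 db/m mice and 1 to 6 in the db/db mice. Mean levels of 0 and 0.743 CPM are both under the limit that 3 reads set (0.857 to 0.981 CPM), so no fold is given although the peak was called (adjusted p = 0.0194). The peak overlaps the neighbouring gene Csnk1d, and the counting does not use strand.

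Slc25a34, a mitochondrial inner membrane carrier whose substrate is not settled, had the largest called rise apart from Slc16a3. At chr4:141619094-141619544 its RNA-seq levels were 21.2, 14.8, 19.6, 18.5 and 20.9 CPM in db/m, and 29.1, a median of 46.3 and 69.8 CPM in db/db. The IP levels were 77.4, 41.9, 70.1, 63.8 and 81.2 CPM in db/m, and 111, a median of 155 and 230 CPM in db/db. In both kinds of library every db/db value lay above every db/m value. This came to a log2 fold change of 1.34 ± 0.20 (SE, adjusted p = 0.000174) in RNA-seq and 1.23 ± 0.21 (SE, adjusted p = 0.0010) in IP reads, and each stayed called whichever animal was left out. IP relative to RNA-seq reads gave -0.07 ± 0.16 (SE). The other 13 of 15 mitochondrial carrier peaks did not pass in either direction. They include Slc25a4, the adenine nucleotide carrier, at 0.19 in RNA-seq reads (adjusted p = 0.503), or 0.016 without db/db animal 6.

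Slc5a1, the high-affinity sodium-glucose carrier of the straight part of the tubule, was higher in db/db without reaching the fold limit. RNA-seq levels at chr5:33162361-33162720 were 52.3, 34.0, 62.8, 44.4 and 39.6 CPM in db/m, and 52.5, a median of 81.6 and 96.7 CPM in db/db. The lowest db/db value was that of animal 6 and lay among the db/m values. The log2 fold change was 0.79 ± 0.18 (SE, adjusted p = 0.0058) in RNA-seq and 0.89 ± 0.23 (SE, adjusted p = 0.0229) in IP reads. Slc5a2, the low-affinity carrier that takes up most of the filtered glucose, had RNA-seq levels of 377 ± 88.2 CPM in db/m (SD, n = 5) and 337 ± 113 CPM in db/db (SD, n = 6), with a log2 fold change of -0.16 ± 0.20 (SE, adjusted p = 0.654), at a peak that also lies in the neighbouring gene Rusf1. Without db/db animal 6 it gave -0.32 (adjusted p = 0.276). Slc2a1, a facilitative glucose carrier, gave 0.46 (adjusted p = 0.0981), and Slc37a4, which brings glucose 6-phosphate into the endoplasmic reticulum, gave 0.25 (adjusted p = 0.339). No sugar carrier peak was lower at an adjusted p under 0.05, and 9 of 11 did not pass.

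Slc4a4, which moves sodium and bicarbonate out of the proximal cell to the blood, was at 107, 105, 115, 125 and 107 CPM in db/m RNA-seq, and at 142, a median of 159 and 183 CPM in db/db, at chr5:89238246-89238455. The groups did not overlap, with a log2 fold change of 0.53 ± 0.11 (SE, adjusted p = 0.00416) in RNA-seq and 0.52 ± 0.15 (SE, adjusted p = 0.0509) in IP reads. Without db/db animal 6 the IP value was 0.57 (adjusted p = 0.0335), the lowest adjusted p with 1 animal left out. Leaving out other single animals gave an adjusted p of up to 0.124 in IP reads. A second Slc4a4 peak, which overlaps this one, also passed in RNA-seq reads (adjusted p = 0.00483), and the other 9 of 11 bicarbonate and anion exchanger peaks did not. Those 9 include the Slc4a4 peaks elsewhere in the gene, which had 10975 to 13107 reads each over the 22 libraries. The rise of Slc4a4 thus passed at 1 stretch of the gene only.

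**Figure D3:**
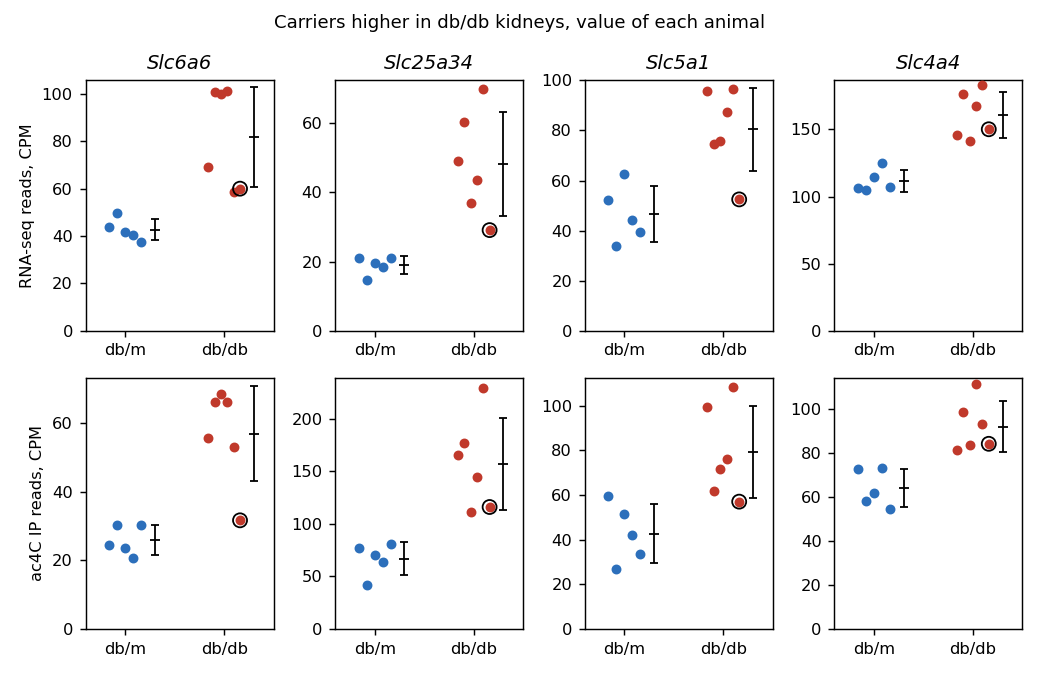
RNA-seq (upper row) and ac4C IP (lower row) levels in CPM at the lead peaks of Slc6a6, Slc25a34, Slc5a1 and Slc4a4, 1 point per animal, with the mean and SD of 5 db/m and 6 db/db animals beside the points. The db/db animal 6 is ringed. Slc25a34 and Slc4a4 show no overlap between the genotypes in either row, and in Slc5a1 the ringed animal lies within the range of the db/m animals in both rows.

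Of the sodium, potassium, calcium and chloride carriers, 11 of 13 peaks did not pass in RNA-seq reads. Slc12a1, the sodium-potassium-chloride carrier of the thick ascending limb, gave 390 ± 111 CPM in db/m (SD, n = 5) and 406 ± 125 CPM in db/db (SD, n = 6), a log2 fold change of 0.06 ± 0.22 (SE, adjusted p = 0.907), while Egf of the same segment was lower. The Slc12a1 peak also lies in Gm14002, as the Slc23a1 peak named further on lies in Paip2. Slc9a8, a sodium-proton exchanger of the Golgi and the brush border, had 2 called peaks of 91 bases at the end of the gene, each with few reads. At chr2:167476850-167476940 its IP levels were 6.31, 4.56, 9.01, 3.81 and 2.004 CPM in db/m, and 0.412, a median of 0.615 and 1.93 CPM in db/db, without overlap. The log2 fold change there was -2.62 ± 0.56 (SE, adjusted p = 0.00681). The second peak was called in RNA-seq reads only, and its IP log2 fold change was -2.73 with an adjusted p of 0.184 in edgeR's test. RNA-seq levels were 0 in at least 5 of 6 db/db mice at both peaks and 0.319 to 1.90 CPM in db/m, around the limit that 3 reads set, so no fold is given. The overlapping peaks share reads, and edgeR's filterByExpr removed them from the RNA-seq test.

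Slc27a2, a fatty acid carrier and acyl-CoA synthetase of peroxisomes and the proximal tubule, had the most RNA-seq reads of the carriers, and its lead peak alone (chr2:126574708-126574797) had 5595 ± 391.9 CPM in db/m (SD, n = 5) and 4008 ± 547 CPM in db/db RNA-seq (SD, n = 6). The groups did not overlap, with a log2 fold change of -0.48 ± 0.12 (SE, adjusted p = 0.0115) in RNA-seq and -0.36 ± 0.14 (SE, adjusted p = 0.146) in IP reads. None of the 11 metal carrier peaks and none of the 5 vitamin C and cofactor carrier peaks passed in IP or RNA-seq reads at any fold. Slc39a14, a zinc and iron carrier, had only 0 to 1.25 CPM in RNA-seq.

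**Figure D4:**
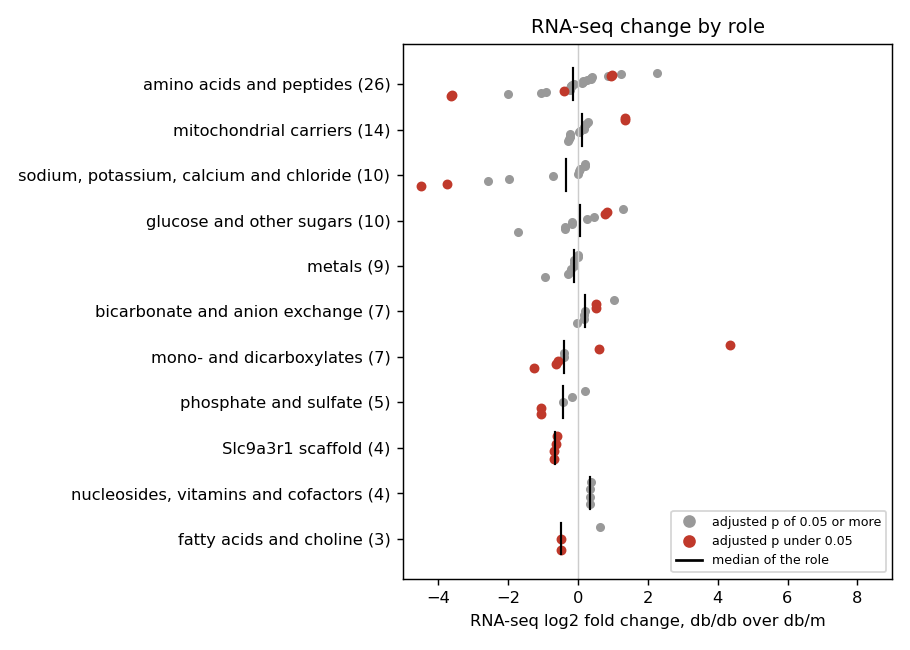
RNA-seq log2 fold change (db/db over db/m) of carrier peaks with 50 reads or more, in rows by what the protein carries, with the number of peaks in brackets and the median of each row as a black line. Roles with 1 such peak are left out. Peaks with an adjusted p under 0.05 are red. The 4 Slc9a3r1 peaks, which share reads in pairs, all lie below 0 and are all red, while no metal or vitamin carrier is red.

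In whole kidney RNA, fewer cells of a type and less RNA per cell cannot be told apart. Partners and regulators of the carriers, listed by name, had peaks in 19 of 32 genes and 57 peaks. In RNA-seq reads 13 of these peaks were lower and 5 higher at an adjusted p under 0.05 with no limit on the fold, beside 11.3% of all peaks in either direction. Ggt1, which splits glutathione at the brush border and feeds the amino acid carriers, stood at 47.2% of the db/m level in the fit. Pdzk1, the brush border scaffold that works beside Slc9a3r1, stood at 49.95 to 56.1%. The receptor Lrp2, also a listed marker of the proximal tubule, stood at 53.3 and 53.7%, while the other gene of that marker list with peaks was higher. Among the higher peaks were 2 of Stk39, a kinase that acts on the cation-chloride carriers, which share their coordinates and reads and so give 1 value, 139.6%. The regulator Hnf4a did not pass.

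The IP level of a peak over its RNA-seq level, taken as the mean over 11 animals of the log2 ratio of CPM + 1, orders the peaks but has no absolute zero. Over the 67 carrier peaks with a mean of at least 50 reads in both kinds of library, the median was -0.41, and it was -0.08 over the 5244 such peaks of the table. Slc25a34 had the highest level of the lead peaks at 1.72 ± 0.16 (SD, n = 11), followed by Slc9a3r1 at 1.37 ± 0.13 and Slc23a1, a vitamin C carrier, at 1.08 ± 0.41. The lowest were Slc6a13, a carrier of GABA and betaine, at -1.30 over a peak of 15579 bases, Slc25a4 at -1.03 and Slc27a2 at -1.01. The Slc9a3r1 level holds for the stretch near the gene start, and the gene's other peaks, further along the gene, stood at -0.82 and -1.08. At the start the IP relative to RNA-seq reads differed by -0.08 ± 0.08 on the log2 scale (SE, adjusted p = 0.88), which was not called.

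**Figure D5:**
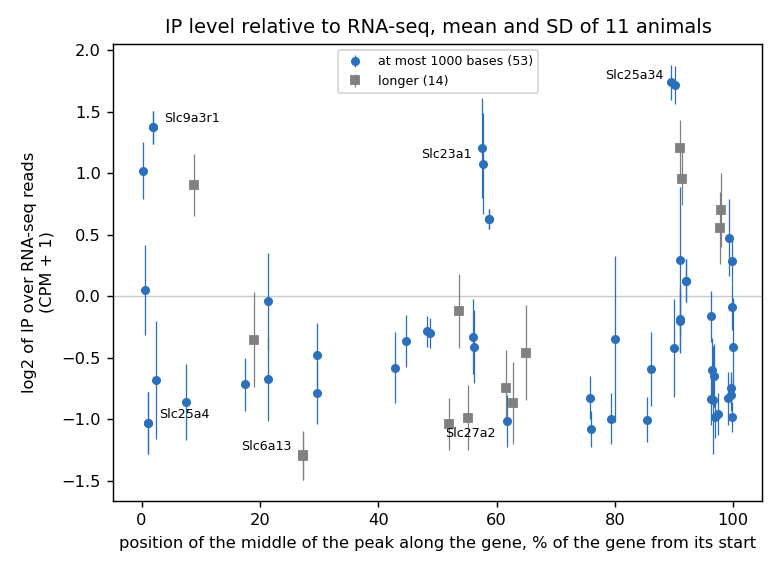
Mean log2 ratio of IP over RNA-seq CPM + 1 with the SD of 11 animals, for 67 carrier peaks with enough reads, against the position of the middle of the peak along the gene from its start (0%) to its end (100%). Circles are the 53 peaks of at most 1000 bases, and squares the 14 longer peaks. The 3 highest and 3 lowest lead peaks are named, and high and low levels occur near both ends of the genes.

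By place, 8 short carrier peaks in the first 10% of the gene had a median level of -0.31, the 21 in the last 10% had -0.41 and the 24 between had -0.41. Overlapping peaks are counted separately here. Among the 8, Slc9a3r1 and Slc25a4 each enter as a pair of peaks with the same coordinates and reads. All short peaks of the table gave 0.10, -0.11 and -0.11 for the same places. No test was made of these levels.

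Among the 16 peaks with an unadjusted p under 0.05 in IP relative to RNA-seq reads, Slc16a11 gave -0.74 ± 0.24 (SE, adjusted p = 0.42), Slc44a2, a choline carrier, -0.82 ± 0.30 (adjusted p = 0.549) and Slc12a9, a relative of the cation-chloride carriers, 0.67 ± 0.27 (adjusted p = 0.58). Slc10a2, the sodium-bile acid carrier, gave 0.42 ± 0.16 (adjusted p = 0.564). At Slc12a9 the IP level was 21.2 ± 5.10 CPM in db/m (SD, n = 5) and 34.1 ± 7.17 CPM in db/db (SD, n = 6), while RNA-seq levels were 11.5 ± 3.20 and 11.6 ± 1.48 CPM. The IP values did not overlap between the genotypes, and the IP change of 0.69 had an adjusted p of 0.0771. None of these 4 genes passed in IP relative to RNA-seq reads after adjustment.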

How the data were processed

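The authors aligned reads to GRCm38 per the labels and deposited a table of ac4C peaks with counts of whole reads in each peak and library, without normalization. The aligner, the peak caller and the counter are not given in the sources used here. The deposited ratio (fold enrichment of IP over input) and adjusted p-value of each peak describe the peak call, and 19 of the 123 carrier peaks have a peak FDR over 0.05. The deposited log2 change and p-values between genotypes are the authors' own comparison and were not used. The table holds 0 per-sample columns of no mapped sample. Strand was not used in the counting: where peaks of opposite strand covered the same bases (90% overlap), reads were within 20% of each other in 51 of 52 pairs. Starts count from 0 in the table, since start plus 1 matched a RefSeq gene start in 103 peaks and the start as given in 8, and are printed from 1.

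Libraries were grouped by the titles. The count test was edgeR 4.0.16 in R 4.3.3 (TMM, glmQLFit, glmQLFTest, no low-count filter), for IP and RNA-seq with genotype alone, and for IP relative to RNA-seq with each animal as a block and a genotype by library type interaction. The relative fit shared 1 trend of spread over all peaks, so its p-values are too small for peaks with a wide spread over animals. Adjustment was by Benjamini-Hochberg over all 9857 peaks. IP and RNA-seq libraries of one number share an animal, and their deviations from the group means correlated at 0.233 to 0.806 in all 11 pairs. Libraries of a group differed by more than sampling noise in all 50 pairs (chi-square per degree of freedom of 3.6 or more). Limits of 3 reads cover counting error only, since PCR copies were not separated. The fits were tested on simulated data. DESeq2 1.42.0, limma 3.58.1, library sizes without TMM, filterByExpr, short peaks, 1 peak per overlap group, no fold limit, other pseudocounts, animals left out and a block of the animal numbers were alternatives.

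The members, the role, partner and marker lists and the motifs were chosen with earlier results of these data known. Values are given for each called peak, for the lead peak of 19 of 42 listed carriers that have one, and for the 3 highest and 3 lowest lead peaks by IP level. The lead peak is the one with most reads among those of at most 1000 bases (among all if none is that short). Slc16a11, Slc44a2, Slc12a9 and Slc10a2, and the further peaks of Slc13a3, were named after their values were seen. Promoters were read from RefSeq tables (GRCm38.p6) in Python 3.11.15. Exons, introns and peak sequences were not analysed here. Some genes of the lists are not reported here.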

Additional observations from a re-analysis of the deposited data

Results flagged for a closer look

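A single animal lay apart from the rest of its genotype group in 16 of 122 groups of named peaks tested. Its gap to the next value was large for the range of the group. Chance alone gives about 1 in 20 (6.1 of 122). The groups are not independent, since overlapping peaks share reads and each animal has both kinds of library, so the excess was not tested. In 9 of the 16 groups, the value apart was a high value of db/db animal 6. These were 42.1 CPM (IP) and 66.7 CPM (RNA-seq) at the Slc7a13 peak near the gene start, 112 CPM (IP) and 106 CPM (RNA-seq) at the Slc7a13 lead peak, 104 CPM (IP) at the shorter Slc34a1 peak, 465 CPM (IP) and 904 CPM (RNA-seq) at the Slc13a3 lead peak, and 68.1 CPM (IP) and 164 CPM (RNA-seq) at the Slc25a4 lead peak. The db/db animal 6 was also the db/db animal nearest to db/m in 12 of the 17 RNA-seq peaks and 7 of the 8 IP peaks that were lower at an adjusted p under 0.05. Since overlapping peaks share reads, the counts by gene are 6 of 9 genes in RNA-seq and 4 of 5 genes in IP reads. At the peaks that were higher in db/db, animal 6 was nearest in 4 of 10 RNA-seq peaks (2 of 6 genes) and 3 of 6 IP peaks (2 of 3 genes). The cause was not tested. Without this animal, 11 IP and 14 RNA-seq calls were made among the carriers, against 8 and 11 with it. Such gains were not particular to it: leaving out db/m animal 1 gave 12 IP calls, and leaving out db/m animal 2 gave 14 RNA-seq calls.

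The other values that stood apart were 1.93 CPM (IP) and 0.301 CPM (RNA-seq) of db/db animal 1 at the first Slc9a8 peak, 2.75 CPM (IP) of db/m animal 3 at the second, 78.9 CPM (IP) of db/m animal 4 at Slc3a1, 10.99 CPM (IP) of db/db animal 1 at Slc16a9, and 4.35 CPM (IP) of db/db animal 1 and 0 CPM (IP) of db/m animal 3 at Slc39a14.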

How the results depend on the processing

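The number of called carrier peaks was 6 to 12 in IP reads and 8 to 14 in RNA-seq reads over the alternatives with the same fold limit, and 0 in IP relative to RNA-seq reads in each. Leaving out 1 animal gave 8 to 12 and 9 to 14. Without a fold limit, 14 and 27 passed. With the replicate block over the shared animal numbers, 12 IP peaks and 13 RNA-seq peaks were called. Nothing says that the numbers pair animals across the genotypes. Same-numbered animals of the genotypes correlated at -0.289 to 0.276 (IP) and -0.381 to 0.491 (RNA-seq). Whether the numbers mark a shared handling was not tested. The block ended the RNA-seq call of Slc16a3, added Slc10a2, Slc15a2 and Slc6a6 in RNA-seq reads, and added Slc34a1 and Slc5a1 in IP reads. Without the animal term, 0 relative calls were made. filterByExpr removed Slc16a3 and Slc9a8 in RNA-seq reads. DESeq2 gave 8 IP and 10 RNA-seq calls, with no adjusted p for Slc7a13.

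Of 1440 refits of named peaks, 1336 kept sign and call, 24 gained and 11 lost a call, and 69 changed sign with no call before or after. The sign changes fell in 19 of 99 pairs of peak and comparison, and in 66 the value moved by less than its SE. The other 3 were Slc39a14 in IP reads (-0.27 without db/db replicate 1, to 1.41 without db/db replicate 5), Slc7a13 in IP relative to RNA-seq reads (-0.24 without db/db replicate 1, to 0.0924 without db/db replicate 6) and Slc23a1 (-0.13 without db/m replicate 3, to 0.147 without db/db replicate 4). The cause was not tested. The median level of IP over RNA-seq of the 123 peaks moved from 0.03 to 0.0081 with a pseudocount of 5 CPM. RNA-seq depth, 3151035 to 3352535 reads in peaks, limits peaks with few reads such as Slc16a3 and Slc9a8.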
